A study of Homo sapiens with 4 samples.

Results

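IGF2BP2 is an RNA-binding protein that reads N6-methyladenosine (m6A) on RNA, and its binding to the transcripts of 44 chromatin regulator genes was examined in Jurkat cells. The genes encode enzymes that add or remove methyl and acetyl groups on histones, subunits of remodeling complexes, and the chromatin proteins BRD2 and CTCF. They were chosen by name, with earlier results of these data known. A gene was described by its sense peaks, that is, peaks that carry the Ensembl identifier assigned to it by position. Their main region is CDS (coding sequence), UTR, noncoding exon or intron. For CHD4 the assigned identifier, ENSG00000285238.2, is not the identifier Ensembl gives to that gene, which had no sense peak. All 44 genes had a sense peak in each of the 2 replicates, among 10867 protein-coding genes with a sense peak and a name in replicate 1 and 10561 in replicate 2. They held 1088 of the 145715 peaks in replicate 1 and 1396 of the 137934 peaks in replicate 2.

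Jurkat is a human T-cell acute lymphoblastic leukemia (T-ALL) line, and no treatment or genetic change of these cells is named in the labels. In iRIP-seq, RNA crosslinked to the protein by UV light is immunoprecipitated and sequenced, here with an anti-IGF2BP2 antibody. The series has 2 IGF2BP2 iRIP libraries and 2 input libraries, and the values below come from the peak lists of the iRIP libraries, since the inputs were not analysed here. There is 1 condition, so no test between conditions was possible, and nothing states whether the replicates were separate cultures. The height of a peak is given in tags, with no adjustment for depth, and the reads per library are unknown. Replicate 1 lists no peak below 4 tags and replicate 2 none below 5, so low peaks of the lists cannot be compared directly. RNA abundance was not measured in these lists, and in a bulk culture more RNA per cell and more cells with the RNA cannot be told apart.

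Chromatin regulators work mostly in large complexes. Methyltransferases of the KMT2 and SETD1 families place methyl groups on lysine 4 of histone H3 (H3K4) at promoters and enhancers, Polycomb proteins place a repressive mark on lysine 27, and demethylases take such marks away. Acetyltransferases and deacetylases set histone acetylation, and SWI/SNF and CHD complexes use ATP to move nucleosomes. Loss or rearrangement of several of these genes, such as PHF6, EZH2 and KMT2A, is well known in T-ALL.

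Sequence was at hand only for peaks near RefSeq transcription starts (GRCh38.p14). Of the peaks on the 44 genes, 5 lay wholly inside such a stretch, on BRD2, a bromodomain reader of acetylated histones, and on HDAC4, a class IIa deacetylase. They are shown because they are the only whole peaks with letters to print, in the direction of transcription. Capitals mark GGA followed by any base, the letters that the study named for IGF2BP2, searched on the transcript strand only. The lists do not say whether positions count from 0 or from 1, so each sequence may be shifted by 1 base.
BRD2 chr6:32972950-32973000 (plus strand): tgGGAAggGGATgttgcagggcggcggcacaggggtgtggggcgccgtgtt
BRD2 chr6:32971550-32971600 (plus strand): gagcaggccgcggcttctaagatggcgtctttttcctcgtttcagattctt
HDAC4 chr2:239267650-239267700 (minus strand): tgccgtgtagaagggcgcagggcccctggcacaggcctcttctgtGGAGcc
HDAC4 chr2:239273600-239273700 (minus strand): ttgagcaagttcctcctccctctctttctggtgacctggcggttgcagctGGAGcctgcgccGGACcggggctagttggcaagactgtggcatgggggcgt

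The BRD2 sequence at position 32972950 was an intronic peak in both replicates, with 4 and 10 tags, and it holds GGAA and GGAT. The other BRD2 sequence was a peak of 12 tags in replicate 2, overlapped by a peak of replicate 1, and it holds no GGA. Both HDAC4 sequences were intronic peaks found in 1 replicate each, with heights of 5 tags and 4.5 tags, and each holds GGAG. These letters are common at gene starts. GGA was present in 70.5% of the 356 peaks of 51 nt that lay in the bases before any RefSeq start, and in 61.0% of the 140464 windows of that length over the same bases. For GGAC, the core of the m6A motif, the shares were 22.5% of these peaks and 17.0% of the windows, and for GGAG 44.7% and 30.4%. GGAA and GGAT, the letters in the BRD2 peak, were slightly less frequent in peaks than in windows, at 23.0% against 23.9% and 11.8% against 12.2%. A match is a description of the letters and not a mapped site.

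A further stretch could be read where a SMARCA4 peak crosses the start codon. SMARCA4 encodes the ATPase BRG1 of SWI/SNF. The peak began at chr19:10984100 in both replicates and reached 6.25 tags in the first replicate and 13 in the second. Its main region was CDS, at 74% of the length in replicate 1 and 80% in replicate 2. The coding bases from the start codon, which is in capitals, at chr19:10984152-10984173 on the plus strand were as follows.
SMARCA4: ATGtccactccagacccacccc

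Peaks on chromatin regulator genes were far more often present in both replicates than on protein-coding genes at large. A sense peak in both replicates was found for 44 of 44 genes, against 43.6% of the 20056 protein-coding genes of the table. An exonic peak, one whose main region is CDS, UTR or noncoding exon, was found in both replicates for 42 of 44, against 22.1% of all genes. The exceptions were SUZ12, a core subunit of the Polycomb complex PRC2, and PHF6, a zinc finger protein. An intronic peak in both replicates was found for 42 genes, against 34%, and the exceptions were KDM6A and HDAC1, which had intronic peaks in replicate 2 alone. These counts describe a set of genes chosen by name with earlier results of these data known, and no test was run on them. How far that choice shaped the differences from other genes was not tested.

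Gene length, here the span on the genome with introns, differs between these genes and all others, so the shares were read within length classes. Exon length was not used, so it was not adjusted for here. Below 30 kb, all 5 chromatin regulator genes had an exonic peak in both replicates, against 18.2% of 11209 other genes. From 30 to 100 kb the count was 17 of 19 genes, against 26.7% of 5467 others. From 100 to 200 kb it was 14 of 14, against 29.1% of 1943, and above 200 kb it was 6 of 6, against 22.7% of 1393. Within each class the chromatin regulator genes thus had the higher share, and no class of other genes reached 30%. The shares among other genes include genes that Jurkat cells may not transcribe, since RNA levels were not used here.

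**Figure D1:**
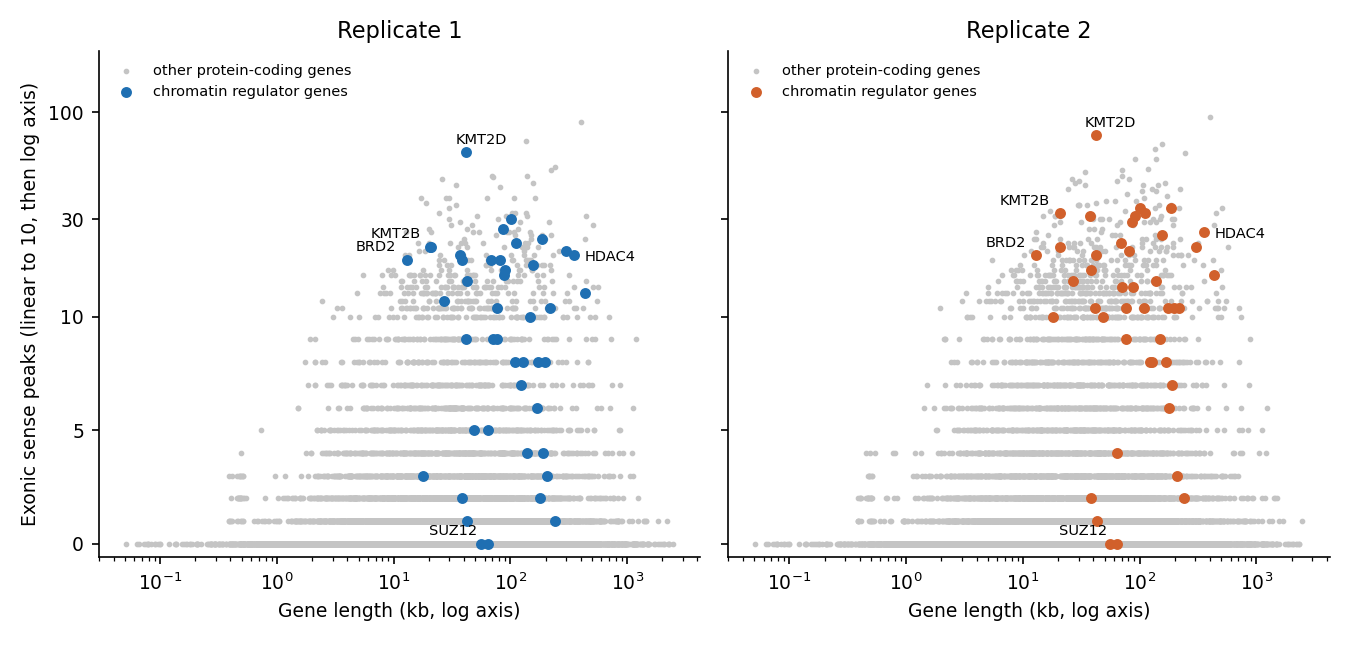
Exonic sense peaks per gene (vertical axis, linear to 10 and log above) against gene length in kb (log axis), with replicate 1 on the left and replicate 2 on the right. Each grey point is 1 of the other protein-coding genes and each coloured point is 1 of the 44 chromatin regulator genes, of which KMT2D stands highest with 64 and 77 peaks while SUZ12 and PHF6 lie at 0.

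Compared with 69 related chromatin genes that are not in the set, peaks were also more numerous. The median number of exonic peaks per gene was 10.5 in replicate 1 and 12.5 in replicate 2 over the 44 genes, and 3 and 6 over the related genes. An exonic peak in both replicates was found for 53 of the 69 related genes, or 76.8%. The remodeler CHD3, for example, had 38 exonic peaks in replicate 1 and 45 in replicate 2. Among the related genes, 4 had no name by position and count as having no peak.

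Exonic and intronic peaks were about equally frequent over the 44 genes, but 1 gene set this balance. The exonic share of sense peaks was 52.8% in replicate 1 (574 of 1088; 95% Wilson interval 49.8% to 55.7%) and 51.8% in replicate 2 (723 of 1396; 49.2% to 54.4%). Intervals reflect counting error alone and treat each peak as independent. Many peaks lie in the same gene, and PCR copies of a read are not separate molecules, so the true spread may be wider. HDAC4 alone held 212 of 514 intronic peaks in replicate 1 and 302 of 673 in replicate 2. Without HDAC4 the exonic share was 64.7% and 65.3%, a mean of 65.0% ± 0.384 (SD, n = 2). In all other named genes it was 35.7% and 42.5%, a mean of 39.1% ± 4.80 (SD, n = 2). The difference from the other genes was larger than the spread between replicates, with HDAC4 or without it.

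Most exonic peaks lay in coding sequence. The main region was CDS for 474 peaks in replicate 1 and 603 in replicate 2, which is 43.6% and 43.2% of sense peaks, against 24.7% and 30.5% in other named genes. There were 31 and 37 peaks in 5′ UTRs, 31 and 41 in 3′ UTRs, and 38 and 42 in noncoding exons. Peaks that spanned an exon and an intron made up 30.4% and 32.1%, against 20.5% and 26.6% in other genes. A peak of this kind covers an edge between exon and intron in the annotation the authors used.

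Among the 6 H3K4 methyltransferases, the exonic share was 77.4% in replicate 1 (151 of 195 peaks) and 80.1% in replicate 2 (197 of 246 peaks). KMT2D, a methyltransferase that marks enhancers, led the whole set with 64 and 77 exonic peaks (mean 70.5 ± 9.19, SD, n = 2) and stood at rank 2 of all protein-coding genes. It spans 41.8 kb with introns, so its density was 15.3 and 18.4 exonic peaks per 10 kb of that span, also the highest of the 44. KMT2D carries identifier ENSG00000167548.17 on chromosome 12, and 58 and 71 of its peaks were mainly CDS. The replicates overlapped at 47 of its 69 sense peaks of replicate 1.

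KMT2B, which acts at promoters of developmental genes, had 22 and 32 exonic peaks on 20.9 kb of gene. KMT2A, the MLL gene that is rearranged in acute leukemia, had 17 and 31, and they lay between 52.1 and 88.5 kb from its start in replicate 1 and between 52.2 and 88.2 kb in replicate 2. No exonic peak carrying its identifier lay nearer to the start, but ENSG00000285827.1, another identifier inside the KMT2A interval, held 6 and 12 exonic peaks that are not counted here. KMT2C had 21 and 22 exonic peaks beside 22 and 18 intronic peaks on 301 kb. Partial copies of KMT2C exist elsewhere in the genome and only uniquely mapped reads were kept, so its count is uncertain. SETD1A and SETD1B, which serve the bulk of H3K4 trimethylation, had 12 and 15 exonic peaks and 15 and 20 exonic peaks.

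**Figure D2:**
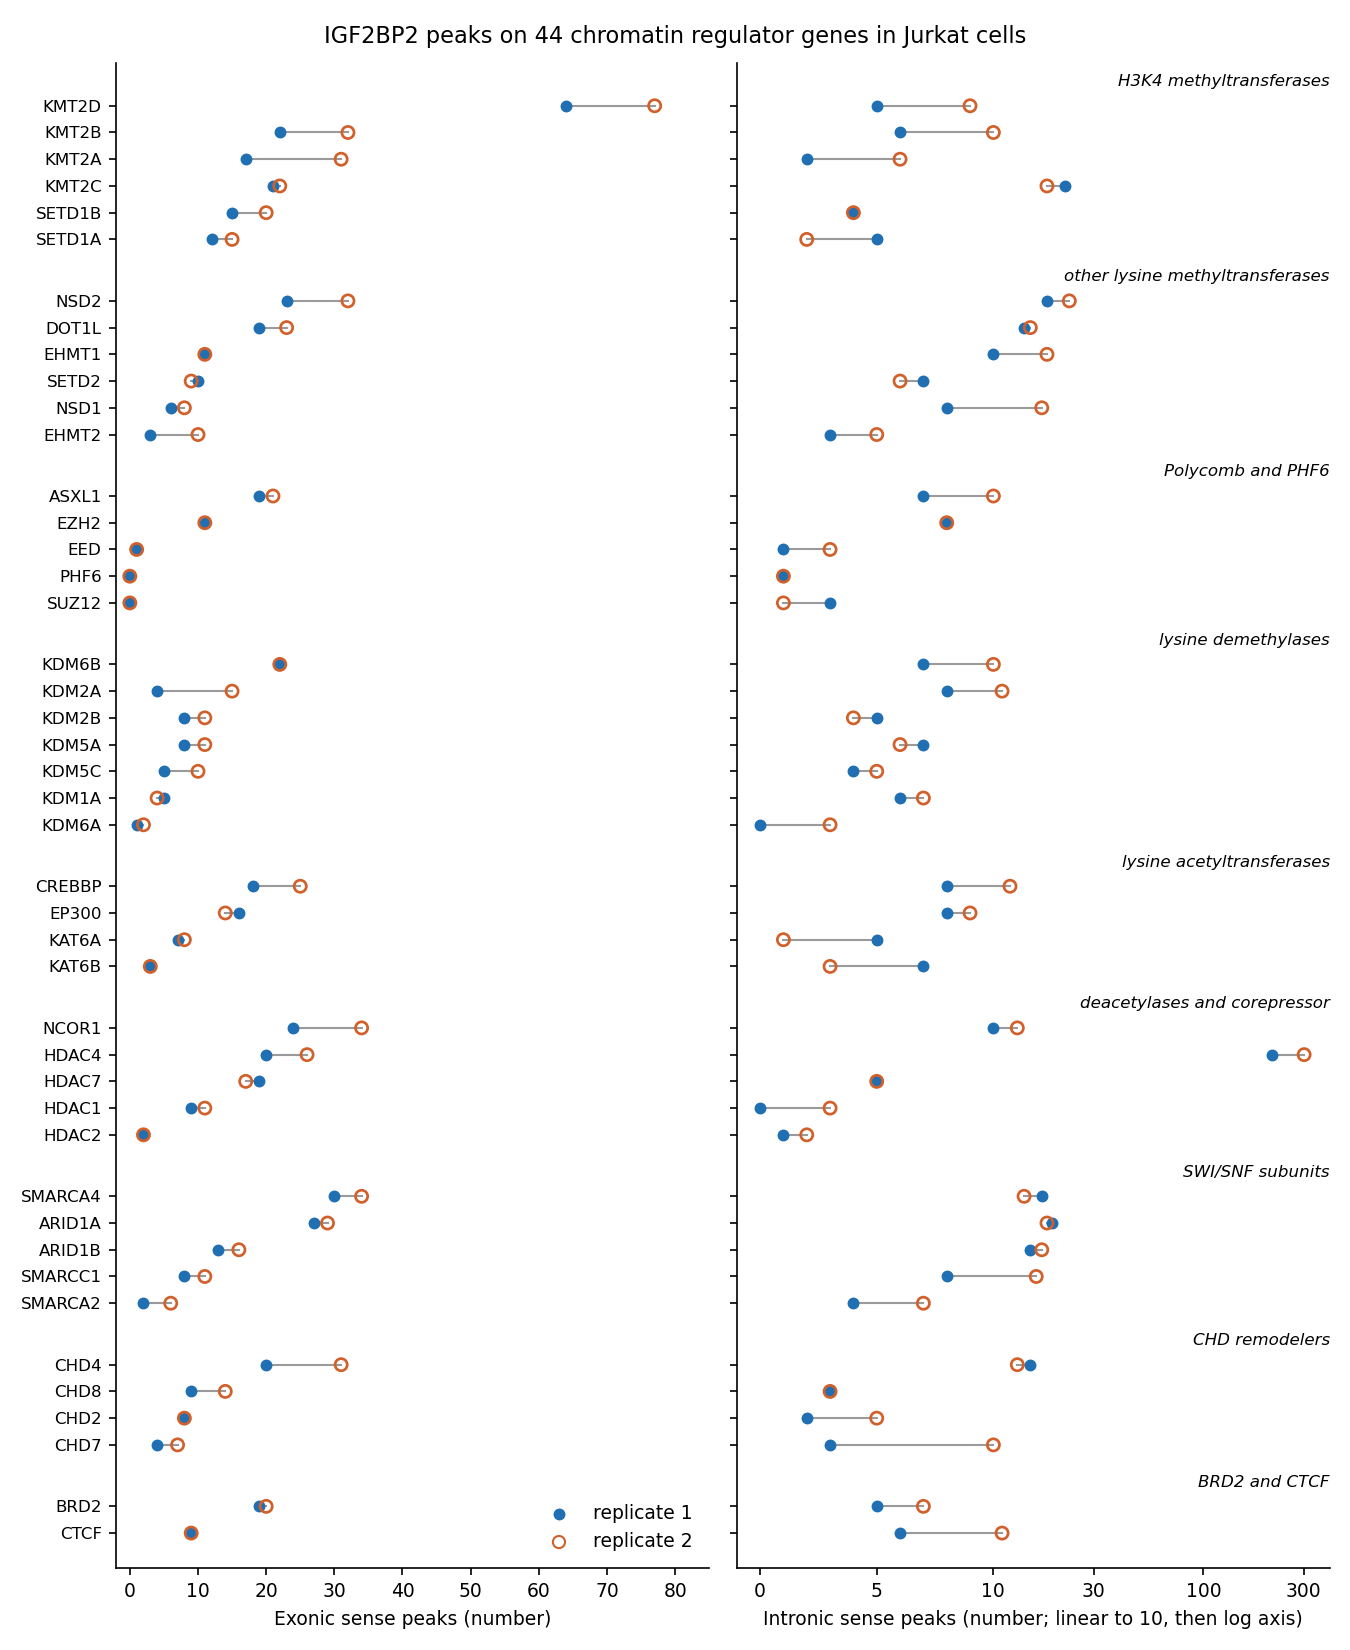
Exonic (left, linear axis) and intronic (right, linear to 10 and log above) sense peaks for each of the 44 genes, grouped by role, with filled points for replicate 1 and open circles for replicate 2. KMT2D leads the exonic peaks with 64 and 77, HDAC4 leads the intronic peaks with 212 and 302, and SUZ12 and PHF6 have 0 exonic peaks in both replicates.

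The other lysine methyltransferases had exonic shares of 54.5% and 52.5%. NSD2, which dimethylates lysine 36 of histone H3, led them with 23 and 32 exonic peaks and 18 and 23 intronic peaks. DOT1L, the lysine 79 methyltransferase, had 19 and 23 exonic peaks with 14 and 15 intronic peaks. EHMT1, which methylates lysine 9, had 11 exonic peaks in each replicate, and its partner EHMT2 had 3 and 10. SETD2, which trimethylates lysine 36, had 10 and 9 exonic peaks. NSD1 was the member of this group with fewer exonic than intronic peaks in both replicates, at 6 and 8 against 8 and 17.

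The subunits of PRC2 differed from each other. EZH2, its catalytic subunit, had 11 exonic and 8 intronic peaks in each replicate. EED, the subunit that binds the mark itself, had 1 exonic peak in each replicate and 1 and 3 intronic peaks, with heights of 5 to 8 tags. SUZ12 had 3 intronic peaks of 4 to 5 tags in replicate 1 and 1 of 5 tags in replicate 2, at different positions. A partial copy of SUZ12 exists on the same chromosome, and only uniquely mapped reads were kept. Whether this lowered its count was not tested. ASXL1, a partner of the deubiquitinase BAP1, had 19 and 21 exonic peaks at a median position of 93.2% and 92.8% of the gene span with introns. Of these peaks, 15 and 18 were mainly CDS, and 0 were mainly 3′ UTR in each replicate. PHF6 had a single intronic peak in each replicate, of 4 tags at chrX:134384400-134384450 and of 5 tags at chrX:134384650-134384700, and these did not overlap.

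Lysine demethylases had exonic shares of 58.9% and 62.0%, and their numbers were uneven. KDM6B, which removes methyl groups from lysine 27, had 22 exonic peaks in each replicate on 20.6 kb, a density of 10.7 per 10 kb. Its paralog KDM6A, on 240 kb, had 1 exonic peak in replicate 1 and 2 in replicate 2, with no overlap between the replicates. KDM2A, a lysine 36 demethylase, had 4 exonic peaks in replicate 1 and 15 in replicate 2, a gap wider than for the other demethylases. KDM5A and KDM5C, which act on H3K4, had 8 and 11 exonic peaks and 5 and 10 exonic peaks. KDM2B had 8 and 11 exonic peaks, and KDM1A, also called LSD1, had 5 and 4.

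Acetyltransferases had exonic shares of 61.1% and 66.7%. The paralogs CREBBP and EP300, coactivators of many transcription factors, had 18 and 25 exonic peaks and 16 and 14 exonic peaks. KAT6A had 7 and 8, and KAT6B had 3 in each replicate with no peak shared between the replicates. Among deacetylases, HDAC7, a class IIa enzyme expressed in T cells, had 19 and 17 exonic peaks. HDAC1 had 9 and 11 exonic peaks with 0 and 3 intronic peaks, while its close paralog HDAC2 had 2 exonic peaks in each replicate and heights of at most 7 tags. NCOR1, a corepressor scaffold that recruits deacetylases, had 24 and 34 exonic peaks (mean 29.0 ± 7.07, SD, n = 2).

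SWI/SNF subunits had exonic shares of 55.9% and 57.1%. SMARCA4 had 30 and 34 exonic peaks and 17 and 14 intronic peaks, and its alternative ATPase SMARCA2 had 2 and 6 exonic peaks. ARID1A, the large DNA-binding subunit, had 27 and 29 exonic peaks, and ARID1B, its paralog on 435 kb, had 13 and 16. SMARCC1, a core subunit, had 8 and 11. In each of these paralog pairs the gene with more exonic peaks was the shorter gene.

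Among CHD remodelers, CHD4, the ATPase of the NuRD complex, had 20 and 31 exonic and 15 and 13 intronic peaks, and CHD8 had 9 and 14. CHD2 had 8 in each replicate and CHD7 had 4 and 7. The sense peaks of CHD4 are listed under ENSG00000285238.2, an identifier that was assigned to CHD4 because all its peaks lay in that gene on its strand. ENSG00000111642.16, the identifier Ensembl itself gives to CHD4, had 1 antisense peak and no sense peak, so every count for CHD4 rests on position, and without CHD4 the set has 43 genes, all with a sense peak in both replicates. BRD2 had 19 and 20 exonic peaks on 12.9 kb, which made it the second densest gene of the set at 14.7 and 15.5 per 10 kb. CTCF, which binds insulators and anchors chromatin loops, had 9 exonic peaks in each replicate.

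Peaks were next compared between the replicates by position. An overlapping pair was a peak of replicate 1 that shared at least 1 bp with a peak of replicate 2 on the same gene. Positions were read as half-open for this. Such a pair was found for 39 of 44 genes, against 15% of all protein-coding genes and 68.1% of the related chromatin genes (47 of 69). In this reading the 5 genes without a pair were SUZ12, PHF6, KDM6A, KAT6B and HDAC2. The listed lengths count both end positions. Where bins that share only an end position also count, a pair was found for 40 genes, HDAC2 among them. No share over all genes was computed for that reading. Of exonic peaks in replicate 1, 50.9% were overlapped in replicate 2 (292 of 574; 46.8% to 54.9%), against 39.7% in other named genes. Of intronic peaks 26.1% were overlapped (134 of 514; 22.5% to 30.03%), against 8.61% in other named genes.

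Whether a peak touched an exon separated the intronic peaks. Peaks that were mainly intronic but reached into an exon were overlapped in 69.0% of cases (80 of 116), and peaks that were mainly exonic and reached into an intron in 67.4% (145 of 215). In the other direction, replicate 2 peaks of these kinds were overlapped in 44.5% of cases (69 of 155; 36.9% to 52.4%) and in 56.0% (164 of 293; 50.2% to 61.5%). Other named genes had 48.4% and 54.6% in the first direction and 32.2% and 41.5% in the other. Wholly exonic peaks were overlapped in 40.9% of cases, against 31.3% in other named genes. In the other direction the shares were 30.7% and 24.1%. Wholly intronic peaks were overlapped in 13.6% (54 of 398), and of these 54 peaks 49 lay in HDAC4. In the 43 other chromatin regulator genes, wholly intronic peaks were overlapped in 2.60% of cases (5 of 192; 1.12% to 5.95%), a range that includes the 3.22% of other named genes (1040 of 32335). Thus outside HDAC4 the wholly intronic peaks of the replicates seldom lay at the same place. Higher peaks were overlapped more often, at 76.5% for exonic peaks of at least 10 tags (39 of 51; 63.2% to 86.0%) and 48.4% for lower ones. In other named genes the shares were 74.1% and 37.1%, so for high peaks the interval of the set includes the share of other genes.

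**Figure D3:**
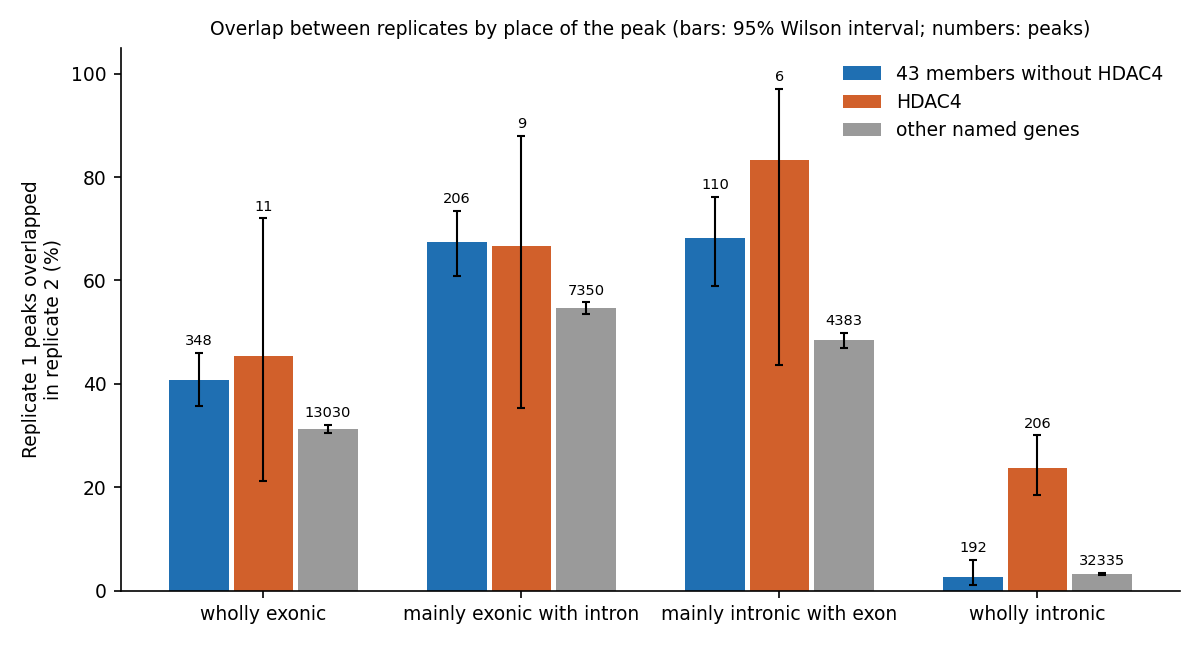
Percent of replicate 1 peaks overlapped by a replicate 2 peak, for 4 kinds of place in the gene, in the 43 genes without HDAC4 (blue), HDAC4 (orange) and all other named genes (grey); error bars are 95% Wilson intervals and the numbers above them count the peaks. Wholly intronic peaks were overlapped in 2.60% of cases in the 43 genes and in 23.8% in HDAC4.

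HDAC4 stood apart from the other 43 genes. It shuttles between cytoplasm and nucleus and represses MEF2 factors. It had 212 and 302 intronic peaks (mean 257 ± 63.6, SD, n = 2), the third most of all protein-coding genes by the sum of both replicates. CHST11 had 293 and 356, RUNX1 had 266 and 354, and GSE1, behind HDAC4 by the sum, had 221 and 277. The next genes of the set by intronic peaks were NSD2, KMT2C, ARID1A, ARID1B and SMARCA4, with 14 to 23 peaks per replicate. HDAC4 spans 353 kb, and its sense peaks covered 3.65% of that length in replicate 1 and 5.60% in replicate 2.

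Of the wholly intronic HDAC4 peaks, 206 in replicate 1 and 295 in replicate 2, 77 and 131 lay in the first 100 kb of the gene. They were low, with median heights of 4 and 6 tags, and 55.8% and 40.3% had the lowest height of their list. The highest had 10 tags in replicate 1, at chr2:239386300-239386350, and 15.5 tags in replicate 2. Overlap with replicate 2 was 23.8% (49 of 206; 18.5% to 30.05%), and in the other direction 16.6% of the 295 peaks of replicate 2 were overlapped. HDAC4 also had 20 and 26 exonic peaks. Its highest overlapping pair lay wholly in CDS in replicate 1, at chr2:239134300-239134400, with 9 tags and 10.2 tags.

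**Figure D4:**
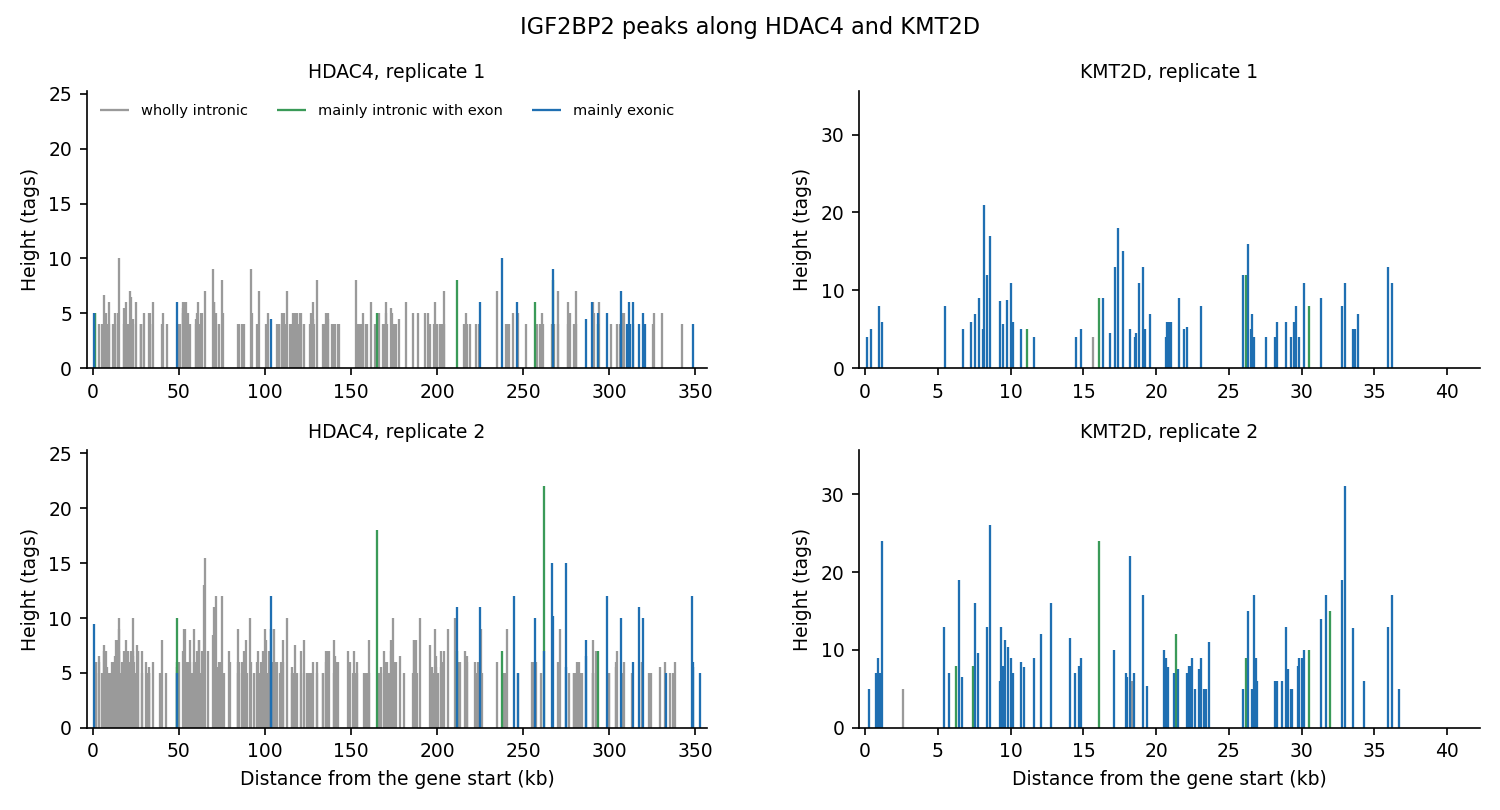
Height in tags of each sense peak against distance in kb from the gene start, along HDAC4 (left) and KMT2D (right), with replicate 1 above and replicate 2 below; grey lines are wholly intronic peaks, green lines are mainly intronic peaks that reach an exon, and blue lines are mainly exonic peaks. HDAC4 is filled with low intronic peaks, 77 and 131 of them in its first 100 kb, while KMT2D has 64 and 77 exonic peaks and at most 9 intronic peaks per replicate.

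Heights varied widely between the genes. In replicate 1, 64 peaks reached 10 tags, and in replicate 2, 233 did, or 5.88% and 16.7% of sense peaks, against 3.22% and 9.98% in other named genes. Such a peak was found in both replicates, at any place of the gene, for 21 of 44 genes, against 3.78% of all protein-coding genes and 23.2% of the related chromatin genes (16 of 69). Overlapping pairs with 10 tags or more in both replicates numbered 33, in 14 genes, and no share over all genes was computed for this rule. In 23 of the 39 genes with a pair, the highest pair was mainly CDS in replicate 1. No such share was computed over other genes. Of all exonic peaks in replicate 1, 474 of 574 were mainly CDS in the set and 14102 of 20380 in other named genes.

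The highest pair, ranked by the lower of its heights, lay in CHD4, whose identifier was assigned by position. It was at chr12:6601950-6602000 with 19 tags in replicate 1 and 33 in replicate 2, and 82% of its length was CDS. The next lay in KMT2D at chr12:49052150-49052200 with 17 and 26 tags, wholly in CDS. SMARCA4 followed at chr19:11018950-11019000 with 16 and 19 tags, in CDS and noncoding exon. These regions were the same bins in both replicates.

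BRD2 had the highest pair in a 5′ UTR, at chr6:32972200-32972350 in replicate 1, with 16.7 and 14.5 tags. ARID1B had 14 and 16 tags at chr6:156901350-156901400, and KDM6B had 14 and 21 tags at chr17:7846800-7846850, both mainly in CDS and partly in intron. ASXL1 had 11 and 14 tags at chr20:32433250-32433300, where the peak of replicate 1 was mainly intronic and the longer peak of replicate 2 mainly CDS. HDAC1 had 11 tags in replicate 1 and 30 in replicate 2 at chr1:32302600-32302650. HDAC7, KMT2B, NCOR1, NSD1 and NSD2 also had pairs whose lower height was 11 tags. BRD2, HDAC7 (13 and 11 tags) and NCOR1 (14 and 11 tags) had the lower height in replicate 2. EZH2 too had its highest pair in the 5′ UTR, at chr7:148884150-148884200, with 12 and 7 tags.

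**Figure D5:**
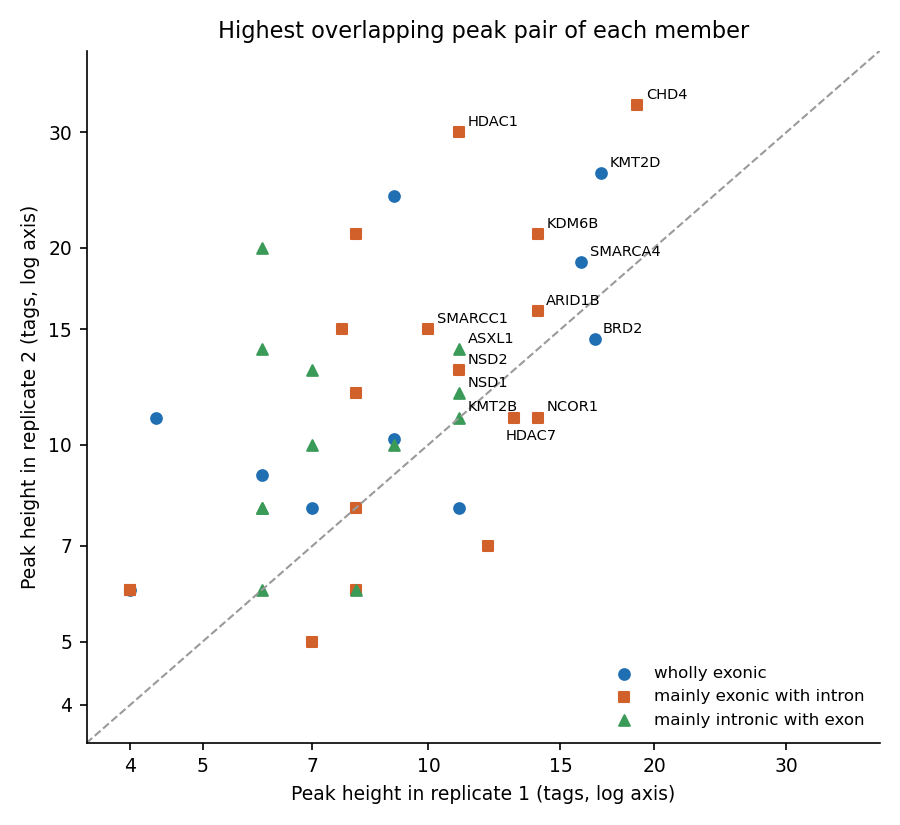
Height in tags of the highest overlapping peak pair of each of 39 genes, replicate 1 on the horizontal and replicate 2 on the vertical axis (both log), with the shape giving the place of the replicate 1 peak and a dashed line at equal heights; pairs with at least 10 tags in both replicates are named. CHD4 (19 and 33 tags), KMT2D (17 and 26) and SMARCA4 (16 and 19) are the highest by the lower height.

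Not every high peak had a partner. KMT2D had its highest replicate 1 peak, with 21 tags, at chr12:49052550-49052600, and no peak of replicate 2 overlapped it. BRD2 likewise had a peak of 21 tags in replicate 1 at chr6:32976550-32976600 with no overlap. In replicate 2 a CHD4 peak of 33 tags at chr12:6599750-6599800 had none in replicate 1, while the highest peak of all 44 genes, 34 tags in SMARCA4 at chr19:10987650-10987700, did.

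Most genes had more peaks in replicate 2 than in replicate 1. Exonic peaks were more numerous in replicate 2 for 30 genes, equal for 10 and fewer for 4 (SETD2, KDM1A, EP300 and HDAC7). Intronic peaks were more numerous in replicate 2 for 28 genes, equal for 5 and fewer for 11. The ratio of replicate 2 to replicate 1 was 1.26 for exonic and 1.31 for intronic peaks over the set, and in other named genes it was 1.29 and 0.970. HDAC4, with 212 and 302, gave most of the rise in intronic peaks of the set. Without HDAC4 the set had 302 intronic peaks in replicate 1 and 371 in replicate 2, which is also a rise. Since the depth of the libraries is unknown, the part of depth in this difference was not tested.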

How the data were processed

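The 44 genes and the lists were chosen with earlier results of these data known. IGF2BP2 iRIP-seq libraries of Jurkat cells (2 iRIP, 2 input) were sequenced as 150 bp pairs. Per the methods and labels, the authors aligned reads with TopHat2 to GRCh38, kept uniquely mapped reads, and called peaks in each library against 500 simulations per gene (p value below 0.05). Peaks that overlapped input peaks were removed. The annotation version is not given in the sources used here. The deposited peak heights are a signal counted in tags, without adjustment for depth. The deposited p-value of a peak served only as a filter, and the region shares and identifiers are the authors' own.

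Each peak was assigned to the region that took most of its length. The RefSeq gene table (GRCh38.p14, 20056 protein-coding genes) does not pair Ensembl identifiers with names, so each identifier was named by position and strand. Identifiers with peaks in CDS or UTR took the only gene that held at least 80% of them with a margin of 1000 nt, and any other took the only gene that held all its sense peaks. Where several identifiers led to 1 symbol, the one with at least 2 times the CDS and UTR peaks of the next kept it, a rule chosen after seeing the lists. Of 20428 identifiers 12691 were named, all 44 chromatin regulator genes among them. The table gave no strand for 4214 genes, which were matched by position alone.

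All peaks were counted whatever their height. Listed lengths count both end positions. For overlap between replicates, positions were read as half-open, so that neighbouring bins that share only an end position do not overlap. Shares have 95% Wilson intervals. The genes described in full follow a rule: the 12 with the most exonic peaks, the 8 with the most intronic peaks, the 8 with the highest overlapping pair, and every gene with no exonic peak in both replicates. The exonic pairs chosen for sequence needed a genome that was not used here, so peaks at RefSeq starts are shown in their place. Naming and overlap were tested on simulated data. Alternatives were minimum heights of 5 and 10 tags, a p value under 0.001, any exonic share, an overlap of 50%, touching peaks, the other direction, and each replicate left out. Added after seeing the data were the set without HDAC4, KMT2D or CHD4 and all sense peaks in a gene's interval. Python 3.11.15, numpy 2.4.6, pandas 2.3.3, statsmodels 0.14.6 and matplotlib 3.10.9 were used.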

Additional observations from a re-analysis of the deposited data

Results flagged for a closer look

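Antisense peaks on the 44 genes were left out of the comparisons. There were 103 in replicate 1, on 33 genes, and 101 in replicate 2, on 31 genes. Their highest heights were 6 and 9 tags, 80.6% and 72.3% had the lowest height of their list, and 0 of them overlapped between the replicates. For antisense peaks over all genes, neither the share at the lowest height nor the overlap was computed. Whether the set differs in these was not tested. Antisense peaks made up 8.65% and 6.75% of the peaks assigned to the 44 genes, against 28.1% and 23.0% over all genes.

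Sense peaks inside a gene of the set but under another identifier were also left out. They numbered 36 in replicate 1 (13 exonic) and 52 in replicate 2 (24 exonic), and they lay in 6 genes. KMT2A held 11 and 17 of them, EHMT1 11 and 12, CHD2 7 and 10, KMT2D 6 and 11, SETD1B 1 in each replicate, and EED 0 and 1.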

How the results depend on the processing

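With peaks of at least 10 tags, 21 genes kept a sense peak in both replicates (44 with all peaks), 18 an exonic peak (42), 9 an intronic peak (42) and 14 an overlapping pair (39), the mean number of sense peaks was 148.5 (1242), the exonic share 76.3% (52.3%) and the intronic overlap 38.5% (26.1%). With at least 5 tags, 41 genes kept a sense peak in both replicates, 38 an exonic peak, 38 an intronic peak and 35 an overlapping pair. At that height the exonic share was 57.1%, and 60.9% of exonic peaks (50.9%) and 46.6% of intronic peaks were overlapped. A p value under 0.001 left 40 genes with a sense peak in both replicates, 34 with an exonic peak and 31 with an intronic peak. That filter left a mean of 417 sense peaks and an exonic share of 63.6%. Where any exonic share counts as exonic, the exonic share was 63.2% and the intronic overlap 13.6%. Where touching peaks also overlap, the overlap was 61.8% for exonic and 31.5% for intronic peaks, with a pair in 40 genes. For replicate 2 against replicate 1 it was 40.9% and 18.3%. The exonic share was 65.0% without HDAC4 and 49.7% without KMT2D. The cause of these moves was not tested, beyond what each setting removes. Of the 64 values, 44 stayed within 1.5 times a count, within 1 SD of the exonic share or within the Wilson interval of an overlap. The lower gene counts at 5 tags and at a p value under 0.001 are among these 44, because the limit for counts is wide. With 1 replicate left out, genes with a sense peak numbered 44 to 44, with an exonic peak 42 to 42 and with an intronic peak 42 to 44, sense peaks 1088 to 1396, and the exonic share was 51.8% to 52.8%. No paired analysis was possible because the inputs, which share replicate numbers with the iRIP libraries, have no values here. The peak lists limit what can be said: depth, RNA abundance and input signal are unknown, so heights and counts cannot be adjusted for them, and the identifiers of the set rest on position.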
